A study of Homo sapiens with 6 samples.

Results

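The genes described here mark differentiation of the intestinal epithelium, and they were followed in HCT116, a line of human colon carcinoma, with and without BRCA2, a mediator of homologous recombination. The list held 37 genes named for their known roles and was drawn up with earlier results of these data known. A gene counted as measured where a probe set carried its symbol and no other. This left 27 of the 37, out of 13139 genes measured in the same way on 19458 probe sets. FABP1, PHGR1, CEACAM6, MUC2, MUC5AC, TFF1, TFF2, HNF4A and ATOH1 had no such probe set, MYO1A shared one with another gene, and these 10 were not analysed here. Each measured member had 1 probe set. The members were divided by role into 11 absorptive or surface genes, 4 goblet, endocrine and mucin genes, 3 keratins of simple epithelium, 3 tight junction claudins and 6 transcription factors.

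In the BRCA2 knockout cells both alleles had been disrupted, one after the other, by homologous recombination. The wild-type cells were the HCT116 line obtained from a cell repository. Both were grown in McCoy's medium with serum and received no treatment. Each genotype had 3 arrays, which the labels call technical replicates, although the protocol speaks of separate frozen samples, so p-values cover array spread, which may be technical. The protocol mentions BRCA2-deficient lines without saying which clone each array came from. BRCA2 loss and whatever else distinguishes the lines cannot be told apart. No probe set of BRCA2 itself was analysed here. The values are log2 and were not equalised between arrays. Knockout array 2 resembled wild-type array 1 (Pearson's r = 0.924 over all probe sets) more than knockout arrays 1 and 3 (r = 0.876 and 0.893), and these 2 arrays also had the highest medians of their genotypes (7.80 and 7.71, against 7.36 to 7.48 on the other arrays).

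The colonic epithelium renews from crypt stem cells whose daughters become absorptive colonocytes, mucus-secreting goblet cells or hormone-secreting endocrine cells. Homeodomain factors of the CDX family set intestinal identity, Krüppel-like factors (KLF) and epithelial members of the ETS family act along the path from dividing to differentiated cell, and claudins and keratins build the junctions and the cytoskeleton of the mature sheet. HCT116 is a line of transformed cells and holds no normal crypt.

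Of markers that define colon epithelium, EPCAM and CDH1 were above the array median on all 6 arrays. EPCAM, an epithelial adhesion molecule, was at 9.75, 10.31 and 10.30 on knockout arrays 1, 2 and 3, against 10.07, 9.47 and 10.10 on wild-type arrays 1, 2 and 3. CDH17, an intestinal cadherin, was below the array median on all 6 arrays, at 5.68, 4.08 and 5.40 in knockout and 4.75, 4.96 and 3.62 in wild type. Of the other 3 markers checked, CDX2 exceeded the median on 5 of 6 arrays, and VIL1 and GPA33 on 0 of 6. General epithelial genes were thus bright in these cells, and 3 of the 4 intestinal ones were dim. Probe sets differ in brightness for reasons other than abundance, so no level is set against that of another gene below.

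Between the genotypes, 24 of the 27 members had a positive log2 difference, knockout minus wild type, against 51.3% of all probe sets. Their median difference was 0.46, where the median was 0.02 over all probe sets and 0.07 over all genes measured in the same way. The surface adhesion gene CEACAM1 was the one member that passed the test, and it rose. A member was called at an adjusted p under 0.05 in limma, with Benjamini-Hochberg adjustment over all 19458 probe sets, a rule that called 0.570% of probe sets, 0.416% as higher and 0.154% as lower. Before adjustment, limma gave p under 0.05 for 7 members, each of them higher in the knockout. The same held for 12.2% of all probe sets, 6.92% as higher and 5.28% as lower. Knockout and wild-type values did not overlap in 14 members, all higher in the knockout, where 12.0% of all probe sets were separated in that direction and 7.70% in the other. That count depended on scaling, and was 6 after each array was centred on its median (9.80% of all probe sets) and 9 after quantile normalization (10.7%). The 6 separated after centring were CEACAM1, AQP3, CA2, CLDN4, KLF5 and ELF3. In bulk samples, a larger share of cells expressing a gene and more RNA per cell cannot be told apart.

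**Figure D1:**
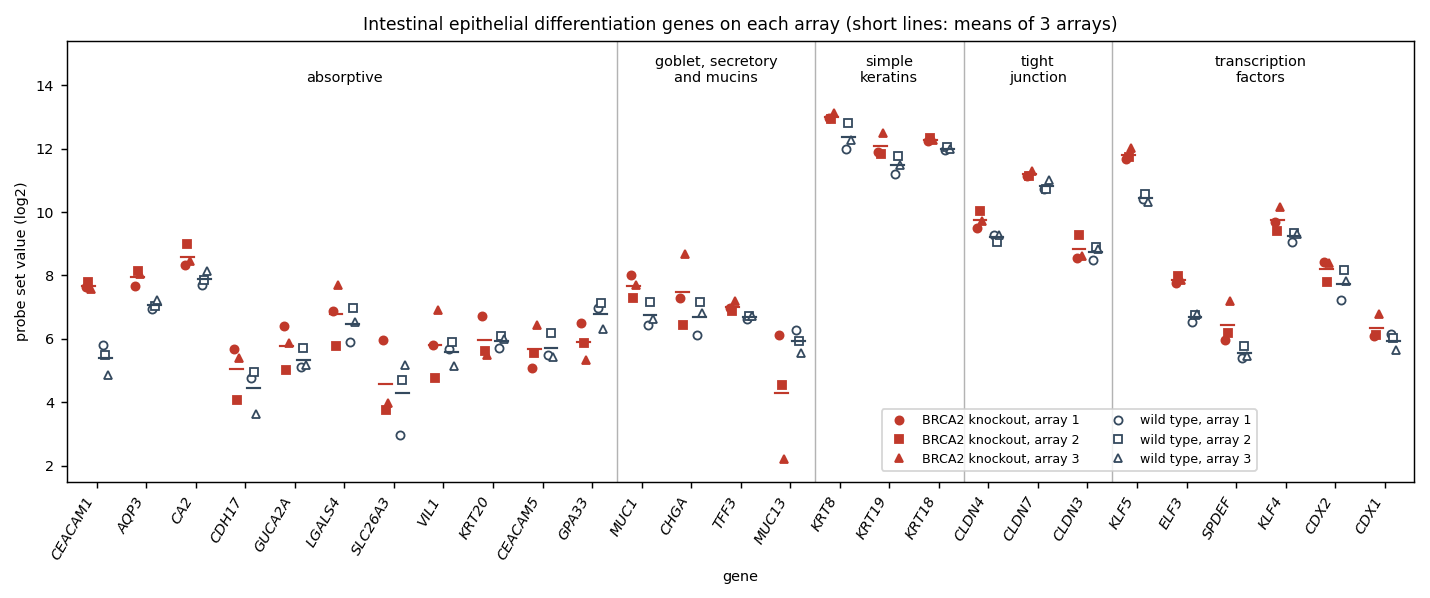
Log2 probe set value (vertical axis) of the 27 measured genes (horizontal axis, grouped by role) on the 3 knockout arrays (filled, red) and the 3 wild-type arrays (open, dark blue), with short lines at the means. CEACAM1, KLF5 and ELF3 show the widest gaps between the genotypes, and most other absorptive genes overlap.

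Among absorptive and surface genes, CEACAM1 rose, and AQP3 and CA2 had smaller differences with separated arrays. CEACAM1 encodes a homophilic adhesion molecule whose long form has an inhibitory cytoplasmic tail. Its log2 values were 7.64, 7.79 and 7.59 on the knockout arrays, against 5.79, 5.49 and 4.87 on the wild-type arrays. They exceeded the array median on 2 of 6 arrays. All knockout arrays lay above all wild-type arrays, with a gap of 1.79 between the lowest of them and the highest wild-type array. The difference was 2.28 ± 0.31 (SE, 95% interval 1.56 to 3.01, limma adjusted p = 0.0338), a 4.87-fold higher level in the knockout. With any 1 array left out it remained between 2.03 and 2.49 but was no longer called (limma adjusted p = 0.0631 to 0.163). The CEACAM genes are close relatives, and binding of their transcripts to each other's probes was not tested.

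CEACAM1 has been described as responsive to interferon, the theme in the title of the series, and its promoter is printed for the element through which interferon acts. The 250 bases before its start were taken from RefSeq (GRCh38.p14, chr19:42528482-42528731, minus strand, 5′ to 3′), with the match to the interferon-stimulated response element, searched on both strands as GAAA, any 2 bases, GAAA, in capitals.
CEACAM1: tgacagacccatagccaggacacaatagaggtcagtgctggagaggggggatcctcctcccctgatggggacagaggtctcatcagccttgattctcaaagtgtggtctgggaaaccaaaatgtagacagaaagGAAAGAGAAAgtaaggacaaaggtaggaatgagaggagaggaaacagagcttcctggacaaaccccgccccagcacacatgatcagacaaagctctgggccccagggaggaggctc
The match starts 116 bases upstream of the annotated start. Of 35116 windows of the same length in the RefSeq table, 3.02% held this motif. Among the 23 windows of 20 members it was found in 2 (8.70%), that of CEACAM1 and 1 of the 2 of CLDN7. So few matches do not tell these shares apart. A match in letters is a description and not a tested site.

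AQP3, a water and glycerol channel of the colonocyte's basolateral membrane, was at 7.68, 8.13 and 8.04 in knockout and 6.95, 7.03 and 7.22 in wild type. Its difference of 0.88 ± 0.26 did not pass (limma adjusted p = 0.238, 95% interval 0.28 to 1.49). CA2, the cytosolic carbonic anhydrase of surface colonocytes, was at 8.32, 9.00 and 8.45 in knockout, against 7.69, 7.85 and 8.15 in wild type, a difference of 0.69 ± 0.29 (limma adjusted p = 0.409). In both genes every knockout array exceeded every wild-type array, by 0.46 for AQP3 and 0.17 for CA2.

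The remaining 8 absorptive genes overlapped between genotypes, and these include the brush border and colonocyte markers in the usual sense. VIL1, the villin that bundles actin in microvilli, had a difference of 0.24 (95% interval -1.05 to 1.53), and KRT20, the keratin of differentiated surface cells, one of 0.02 (-0.88 to 0.92). CEACAM5, the carcinoembryonic antigen, lay at -0.02 ± 0.42 (SE). The intervals of VIL1 and KRT20 still hold a change of the size seen for AQP3, so they do not show that the genes were alike in both lines. CDH17 (0.61), the guanylate cyclase ligand gene GUCA2A (0.43), the galectin gene LGALS4 (0.31) and the chloride-bicarbonate exchanger gene SLC26A3 (0.29) were higher on average, with knockout SDs of 0.70 to 1.21. GPA33, which encodes the A33 surface antigen, went the other way, at 6.51, 5.88 and 5.34 in knockout and 6.97, 7.12 and 6.30 in wild type (difference -0.89 ± 0.39, limma adjusted p = 0.423). Over the 11 genes the median difference was 0.31, and 0.77 without knockout array 2. That array had the lowest mean over these genes among knockout arrays (5.94, against 6.61 and 6.47), and 1 of the wild-type arrays, at 6.19, lay above it (the others were at 5.73 and 5.79).

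**Figure D2:**
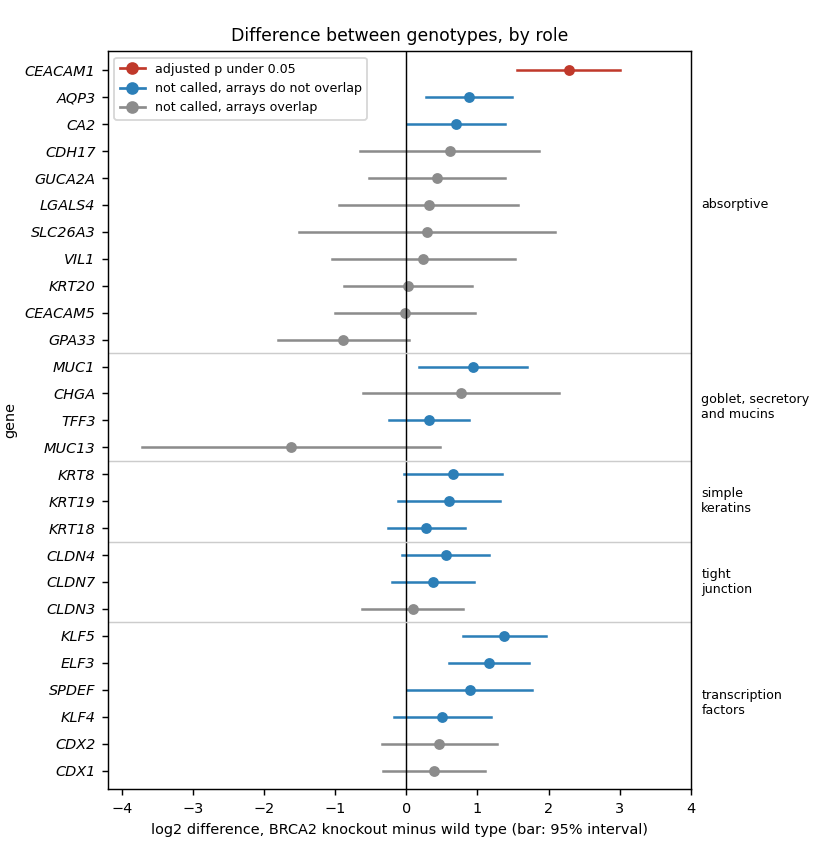
Log2 difference, knockout minus wild type, of each member (points) with its 95% interval from the limma fit (bars), grouped by role from top to bottom. CEACAM1 is the one member called, where 0.570% of all probe sets were called. A further 13 members have separated arrays without a call, where 12.0% of all probe sets were separated as higher. All but GPA33, CEACAM5 and MUC13 lie to the right of 0.

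Of the 4 goblet, endocrine and mucin genes measured, none was called, and the 2 cell-surface mucins had differences of opposite sign. MUC1, a transmembrane mucin of the apical surface, was at 8.02, 7.30 and 7.70 in knockout, against 6.43, 7.16 and 6.63 in wild type. Its difference was 0.93 ± 0.32 (limma adjusted p = 0.308), with knockout array 2 just 0.14 above wild-type array 2. MUC13, another transmembrane mucin, was at 6.11, 4.56 and 2.23 in knockout and 6.30, 5.93 and 5.56 in wild type. Its difference of -1.63 ± 0.89 (limma adjusted p = 0.520) rested on knockout array 3, being -0.59 once that array was left out and -1.04 when a floor of 4 was applied. TFF3, the trefoil peptide of goblet cells, was at 6.98, 6.88 and 7.18 in knockout and 6.62, 6.73 and 6.72 in wild type, which is 0.32 ± 0.24 higher (limma adjusted p = 0.635). It exceeded the array median on 0 of 6 arrays. CHGA, which marks endocrine granules, ranged from 6.45 to 8.68 on knockout arrays and from 6.12 to 7.17 on wild-type arrays (difference 0.77, 95% interval -0.61 to 2.15). The secreted gel-forming mucins of goblet cells are among the genes not analysed, so TFF3 is the one secreted goblet cell product among the measured members.

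The keratins of simple epithelium were each higher on every knockout array, by amounts under 1 on the log2 scale, and none was called. KRT8 and KRT18 encode the partner filaments found in all simple epithelia. KRT8 was at 12.97, 12.94 and 13.11 in knockout and 11.98, 12.80 and 12.27 in wild type (difference 0.65 ± 0.29, limma adjusted p = 0.434). KRT18 was at 12.24, 12.33 and 12.27 in knockout, against 11.95, 12.05 and 12.00 in wild type (0.28 ± 0.23, limma adjusted p = 0.665). KRT19, a keratin that lacks the usual tail domain, was at 11.91, 11.83 and 12.50 in knockout and 11.19, 11.77 and 11.48 in wild type (0.60 ± 0.31, limma adjusted p = 0.494). The gaps between genotypes were small, from 0.06 for KRT19 to 0.19 for KRT18. None of the 3 was separated after median centring, while KRT8 and KRT18 were after quantile normalization. The shares of all probe sets separated as higher were 12.0% as deposited, 9.80% after centring and 10.7% after quantile normalization. KRT8 and KRT18 have many processed pseudogenes, whose share in these signals was not tested.

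Claudins seal the space between epithelial cells, and CLDN3, CLDN4 and CLDN7 are those common to colon epithelium. CLDN4 was at 9.50, 10.03 and 9.72 in knockout and 9.27, 9.06 and 9.27 in wild type (difference 0.55 ± 0.26, limma adjusted p = 0.460). CLDN7 was at 11.13, 11.15 and 11.31 in knockout, against 10.72, 10.74 and 11.01 in wild type (0.37 ± 0.24, limma adjusted p = 0.582). CLDN3 overlapped, with knockout arrays from 8.56 to 9.29 and wild-type arrays from 8.49 to 8.89, and its difference of 0.09 had an interval of -0.62 to 0.80. Thus 2 of the 3 had separated arrays as deposited, and none was called. Over all probe sets, 12.0% were separated as higher as deposited. After median centring (9.80% of all probe sets as higher) and after quantile normalization (10.7%), CLDN4 was still separated and CLDN7 was not.

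The transcription factors had the highest median difference of the 5 roles, 0.70 over 6 genes, and none of them was called. KLF5, a Krüppel-like factor of dividing crypt cells, was at 11.67, 11.72 and 12.03 in knockout and 10.42, 10.55 and 10.32 in wild type. The knockout arrays lay at least 1.12 above the wild-type arrays, and the difference was 1.38 ± 0.25, or 2.60-fold (95% interval 0.79 to 1.97, limma adjusted p = 0.0857). ELF3, an epithelial ETS factor involved in maturation of the intestinal lining, was at 7.77, 7.97 and 7.85 in knockout, against 6.54, 6.77 and 6.80 in wild type. Here too the arrays were separated, by 0.97, with a difference of 1.16 ± 0.24, or 2.23-fold (95% interval 0.59 to 1.73, limma adjusted p = 0.125). Both missed the threshold as fitted. KLF5 passed in 3 of 16 alternatives, those without the dimmest 30% of probe sets, with a variance trend and with array weights. ELF3 passed in 1, with array weights. These 3 settings called 184, 396 and 778 probe sets, against 111 as fitted. Over all 16 alternatives the difference of KLF5 ran from 1.27 to 1.49 and that of ELF3 from 1.02 to 1.21.

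SPDEF, an ETS factor of goblet cell maturation, was at 5.96, 6.18 and 7.18 in knockout and 5.41, 5.79 and 5.46 in wild type (0.89 ± 0.37, limma adjusted p = 0.404). KLF4, a Krüppel-like factor of postmitotic surface and goblet cells, was at 9.68, 9.40 and 10.15 in knockout, against 9.07, 9.33 and 9.30 in wild type (0.51 ± 0.29, limma adjusted p = 0.533). Both were separated as deposited and neither after median centring, and SPDEF was after quantile normalization. SPDEF exceeded the array median on 0 of 6 arrays and KLF4 on all 6. The homeodomain factors that define intestinal identity overlapped, CDX2 with a difference of 0.46 (95% interval -0.34 to 1.27) and CDX1 with one of 0.39 (-0.33 to 1.11). CDX2 ranged from 7.80 to 8.41 on knockout arrays and from 7.22 to 8.16 on wild-type arrays, and CDX1 from 6.10 to 6.77 on knockout arrays and from 5.64 to 6.16 on wild-type arrays.

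The promoters of KLF5 and ELF3, the factors with the widest separation among the members, are printed to show what they hold of the core letters read by KLF factors (CACCC) and CDX factors (TTTAT). Each run is the 250 bases before a RefSeq start (GRCh38.p14, plus strand, 5′ to 3′), with matches on either strand in capitals, GGGTG and ATAAA being the same motifs read on the other strand. KLF5 has 2 starts in the table, at chr13:73054726-73054975 and chr13:73058755-73059004, and ELF3 has 1, at chr1:202010337-202010586.
KLF5 start 1: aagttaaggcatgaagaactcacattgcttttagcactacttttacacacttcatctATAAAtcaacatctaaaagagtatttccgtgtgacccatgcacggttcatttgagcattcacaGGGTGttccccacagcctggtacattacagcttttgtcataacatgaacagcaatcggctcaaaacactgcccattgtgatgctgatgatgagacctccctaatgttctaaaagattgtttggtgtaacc
KLF5 start 2: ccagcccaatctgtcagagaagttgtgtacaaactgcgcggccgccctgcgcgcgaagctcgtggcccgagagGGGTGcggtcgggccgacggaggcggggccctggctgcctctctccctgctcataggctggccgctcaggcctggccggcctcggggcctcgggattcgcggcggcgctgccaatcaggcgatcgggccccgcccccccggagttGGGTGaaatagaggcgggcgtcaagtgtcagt
ELF3: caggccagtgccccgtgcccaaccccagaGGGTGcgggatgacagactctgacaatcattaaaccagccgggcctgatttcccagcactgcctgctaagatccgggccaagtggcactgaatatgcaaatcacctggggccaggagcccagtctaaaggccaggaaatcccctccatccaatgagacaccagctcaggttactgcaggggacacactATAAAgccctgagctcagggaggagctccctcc
No matches overlapped. The second KLF5 window held 2 KLF cores and no CDX core, and the other windows held 1 of each. Such short motifs are common, and 54.7% of all windows held CACCC and 32.7% held TTTAT. Among the 23 windows of members the shares were 60.9% and 34.8%, close to those of all windows.

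**Figure D3:**
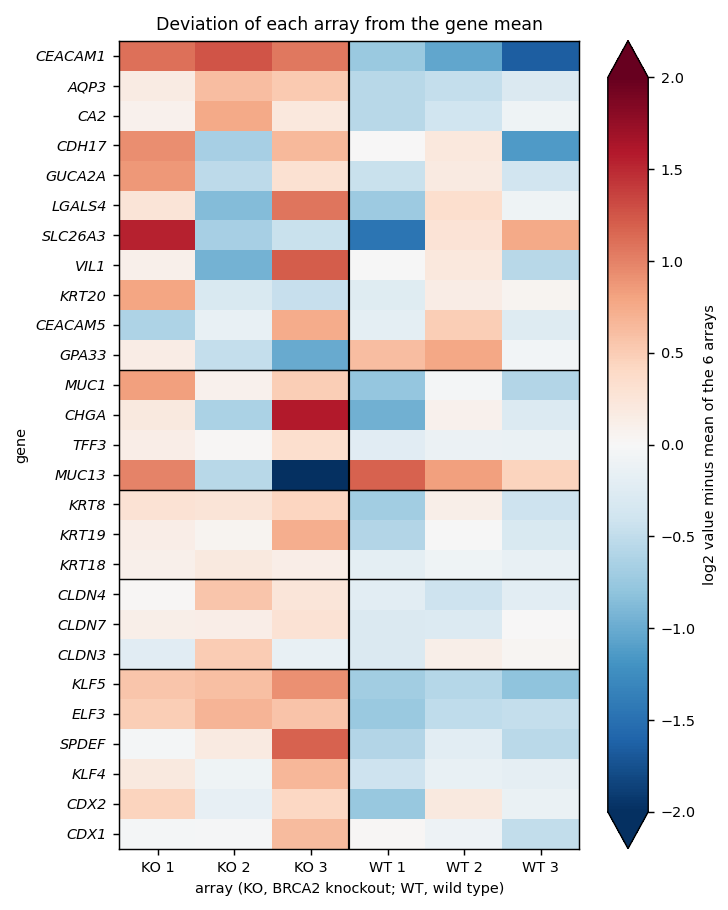
Each cell gives the log2 value on 1 array (columns, knockout left of the line) minus the mean of the 6 arrays for that gene (rows, by role), with colours held at 2 in both directions. CEACAM1, KLF5 and ELF3 are above their means on all knockout arrays, while VIL1, LGALS4, CHGA and CDH17 are below theirs on knockout array 2.

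The mean over the 27 members was 8.04, 7.68 and 8.03 on knockout arrays 1, 2 and 3, against 7.29, 7.67 and 7.39 on wild-type arrays 1, 2 and 3. Knockout array 2 thus lay level with wild-type array 2, although its median over all probe sets was the highest of the 6. Without knockout array 2 the median difference of the members was 0.69, and without it and wild-type array 1 it was 0.53. In that comparison of 2 against 2 arrays, 19 members were separated as higher and 1, CLDN3, as lower, where 23.2% of all probe sets were separated as higher.

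Other genes of the same roles were taken from a list of 108, of which 80 were measured. Its keratins were not limited to those of intestine. Of these 1 was called as higher and 1 as lower, against 0.416% and 0.154% of all probe sets. Positive differences numbered 52, and the median over the 80 was 0.31. EHF, an ETS factor of epithelial cells and a close relative of ELF3, rose, at 11.69, 11.68 and 11.99 in knockout and 9.38, 9.46 and 9.61 in wild type. Its difference was 2.30 ± 0.25, or 4.93-fold (limma adjusted p = 0.0151), and the knockout arrays lay at least 2.07 above the wild-type arrays. The call held without knockout array 2 (adjusted p = 0.0441) and was lost without any other single array (0.0631 to 0.118). SCG2, which encodes secretogranin II of endocrine granules, fell, at 5.28, 4.46 and 5.05 in knockout against 7.42, 6.88 and 7.36 in wild type. Its difference was -2.29 ± 0.32 (limma adjusted p = 0.0387, and 0.0738 to 0.209 with any 1 array left out). SCG2 exceeded the array median on 0 of 6 arrays. CHGA, the related granule gene among the members, overlapped between genotypes. Its difference of 0.77 had an interval of -0.61 to 2.15, so its direction is not settled.

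Over all probe sets, 12.0% were separated as higher and 7.70% as lower, and 9.80% as higher after median centring. Junction genes outside the members had a median difference of 0.74 over 10 genes, with none called. Of these, 5 were separated as higher and 0 as lower, and 4 and 0 after median centring. CLDN1, the claudin with the largest difference in that list, overlapped between genotypes (1.18 ± 0.53, limma adjusted p = 0.436). CDH1, the E-cadherin gene, was named after its values were seen, at 11.34, 11.33 and 11.64 in knockout and 10.28, 10.34 and 10.25 in wild type (1.15 ± 0.24, limma adjusted p = 0.127). Other transcription factors had a median of 0.42 over 16 genes, with 4 separated as higher and 1 as lower, and 4 and 2 after median centring. Keratins outside the members had a median of 0.59 over 7, led by KRT7, a simple keratin rare in normal colon, at 8.50, 8.67 and 8.92 in knockout and 7.16, 7.05 and 6.81 in wild type (1.68 ± 0.26, limma adjusted p = 0.0509). Of these 7, which were not limited to keratins of intestine, 4 were separated as higher (KRT7, KRT10, KRT13 and KRT15) and 1 as lower. After median centring the counts were 2 and 1. The lower one, KRT23, named after its values were seen, was at 7.23, 7.23 and 7.05 in knockout, against 7.98, 7.55 and 8.50 in wild type (-0.84 ± 0.31, limma adjusted p = 0.347).

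Lists of terminal lineage markers had lower medians, a contrast that was not tested. Other absorptive genes, among them brush border enzymes and transporters, had a median of 0.19 over 22 genes, with 1 separated as higher, 0 as lower and none called, and MEP1A, a brush border metalloprotease gene, at -1.32 ± 0.77 (limma adjusted p = 0.544). Other goblet, endocrine and Paneth genes had a median of 0.22 over 25 genes. In that list 3 were separated as higher and 1, SCG2, as lower, against 12.0% and 7.70% of all probe sets. The lowest point of that list, the tachykinin gene TAC1, named after its values were seen, had a difference of -3.75 that rested on knockout array 2 (-7.28, against 5.33 and 4.23 on the other knockout arrays and 3.56 to 5.11 in wild type).

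Markers of cell types that a colon carcinoma line should lack had medians of like size. Fibroblast markers had a median difference of 0.31 over 7 genes, immune markers 0.50 over 5 and endothelial markers 0.46 over 5, and none of them was called. Of the members of these lists, 5 of 7, 4 of 5 and 3 of 5 had a positive difference. The mean level of the fibroblast markers was 5.68 to 6.57 on knockout arrays and 5.63 to 6.30 on wild-type arrays. For immune markers it was 6.52 to 7.14 in knockout and 6.20 to 6.89 in wild type, and for endothelial markers 5.56 to 6.95 in knockout and 5.14 to 6.12 in wild type, so the genotypes overlapped in all 3 lists. The largest differences were in the collagen gene COL1A1 (1.10 ± 0.26, limma adjusted p = 0.159), the T cell receptor component CD3E (0.73 ± 0.68) and the endothelial receptor TEK (1.54 ± 0.85). COL1A1 exceeded the array median on 4 of 6 arrays, CD3E on 2 and TEK on 0. Of the other markers, CD68 exceeded it on all 6 arrays, KDR on 4, COL3A1 on 3 and COL1A2 on 1. CD68, an immune marker, was at 9.14, 9.04 and 9.21 in knockout and 8.22, 8.63 and 9.01 in wild type (0.51 ± 0.29). Separated as higher were 1 of the 7 fibroblast (COL1A1), 1 of the 5 immune (CD68) and 0 of the 5 endothelial markers. The like count was 14 of the 27 members, and the share of all probe sets was 12.0%. After median centring, 1, 0 and 0 markers and 6 members were separated, against 9.80% of all probe sets. Lists of 5 to 7 genes are too short to tell such counts from those shares. The part of signals like those of the markers in the differences of the intestinal genes was not tested.

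**Figure D4:**
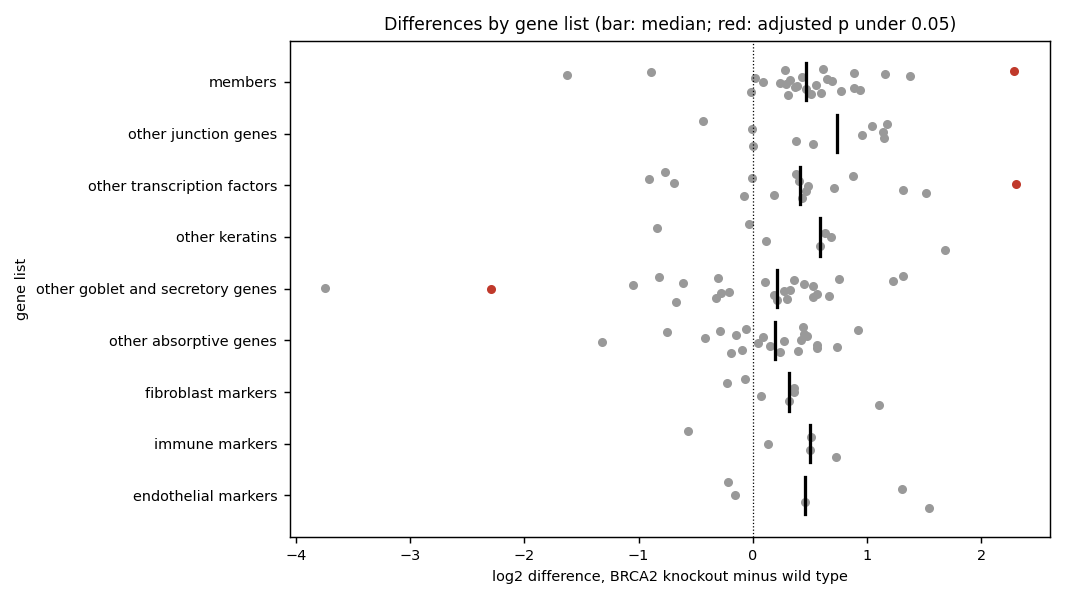
Log2 difference, knockout minus wild type, of each gene (points) by gene list (rows), with the median of each list as a bar and genes called by limma in red. The members' median of 0.46 lies between those of endothelial (0.46) and immune markers (0.50), and CEACAM1, EHF and SCG2 are the genes called.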

How the data were processed

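The deposited values are log2 probe set values from Affymetrix whole-transcript arrays of ribosomal RNA-depleted total RNA. RMA, R 2.11.1 and hg18 are named in the submitters' processing notes, and the RMA steps applied are not stated there. Medians differ between arrays, so the deposited log2 values are not quantile normalized. They were used as deposited, without a filter, and all 6 columns were used. Of 19458 probe sets, 13301 had 1 gene symbol in the platform annotation, 2044 had several and 4113 none. A gene was represented by its single-symbol probe set of highest mean.

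Genotypes were compared with limma 3.58.1 in R 4.3.3 (lmFit and eBayes, genotype as the only factor, Benjamini-Hochberg over all probe sets, called under 0.05), and the code was tested on simulated data. In arrays simulated with the observed spread, 0% of probe sets changed by 1 on the log2 scale were called, and 46% of those changed by 2. The smallest difference called in the real data was 1.56, so a member not called may still differ. Each log2 difference, knockout minus wild type, carries the SE and 95% interval of that fit. The members, the other lists, the rule for naming genes and the alternatives were chosen with earlier results of these data known. Members that were called, were separated between genotypes or differed by at least 1 are given on all arrays, and of other lists the called genes or the one of largest difference. The number of arrays limits the precision. Motifs were searched in RefSeq promoter windows of GRCh38.p14, found for 20 of the 27 members.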

Additional observations from a re-analysis of the deposited data

How the results depend on the processing

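Directions of the members named as separated held in every alternative run, and calls did not. The number of probe sets called was 111, and 175 after median centring, 174 after quantile normalization, 169 with values under 4 set to 4, 184 without the dimmest 30% of probe sets, 396 with a variance trend, 778 with array weights, 3 with the replicate number as a block, 7 without both arrays of highest median and 24 to 63 with any 1 array left out. Members called were 1 (CEACAM1), and 2 without the dimmest probe sets, 3 with a variance trend and 3 with array weights. They were 0 in the unmoderated test (adjusted p of CEACAM1 0.0905, and 10 members higher at an unadjusted p under 0.05), 0 with the replicate block (0.289, and 4 higher and 1 lower), 0 without both arrays of highest median (0.141, and 4 higher) and 0 with any 1 array left out (4 to 6 higher at that unadjusted p, 2 lower without knockout array 1, 1 lower without wild-type array 3 and 0 lower without the others), where fewer arrays entered. The floor of 4 and the variance trend each gave 7 higher and 1 lower at that p. Deviations of same-numbered arrays from the means of their genotypes correlated at -0.24, -0.43 and 0.06. Deviations within a group of 3 arrays depend on each other, so these values do not settle whether the numbers mark pairs. Array weights gave wild-type array 3 a weight of 6.96, against 0.40 to 1.04 for the others. Separated members were 14, and 6 after median centring and 9 after quantile normalization, alternatives added after seeing the data. The shares of all probe sets separated as higher were 12.0%, 9.80% and 10.7%. The median of the absorptive genes, 0.31, was 0.79 without the dimmest probe sets, which left 17 of the 27 members, and 0.26 to 0.77 with any 1 array left out. Small differences changed sign. KRT20 was at -0.0046 after median centring and CEACAM5 at 0.0014 after quantile normalization, and with array weights SLC26A3 was at -0.27, CEACAM5 at 0.25 and CLDN3 at -0.10. CLDN3 was at -0.26 without both arrays of highest median. With any 1 array left out, LGALS4 ran from -0.15 to 0.82, SLC26A3 from -0.41 to 0.74, VIL1 from -0.30 to 0.77, KRT20 from -0.37 to 0.25, CEACAM5 from -0.39 to 0.28 and CLDN3 from -0.14 to 0.22. The cause of these changes was not tested. Each measured member had 1 probe set, so averaging probe sets gave no other value for them. Groups of 3 arrays were too small to look for outlying arrays per gene.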

Other observations

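Families of the members were looked at whole, a choice made after their values were seen. Of 14 measured Krüppel-like factor genes, 4 were separated as higher in the knockout (KLF5, KLF4, KLF13 and KLF16) and 3 as lower, namely KLF2 (-0.93 ± 0.25), KLF7 (-1.31 ± 0.38) and KLF9 (-0.86 ± 0.32), with none called. Over all probe sets 12.0% were separated as higher and 7.70% as lower. After median centring, KLF5 and the same 3 lower genes were still separated. Of 18 ETS factor genes, 9 were separated as higher and 1 as lower, with a median difference of 0.37, and 8 and 1 were after median centring (9.80% of all probe sets as higher). Besides EHF and the members ELF3 and SPDEF they included ELF5, an epithelial ETS factor (6.75 ± 0.48 in knockout and 5.01 ± 0.29 in wild type, SD, n = 3 arrays each, difference 1.74, limma adjusted p = 0.0979), and ETV6, a repressor (9.71 ± 0.17 in knockout and 8.30 ± 0.12 in wild type, difference 1.41, limma adjusted p = 0.0764). ELF5 exceeded the array median on 0 of 6 arrays. ETV1 was the exception, at 7.26 ± 0.79 in knockout and 9.49 ± 0.30 in wild type (difference -2.23, limma adjusted p = 0.0979).

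Of 16 claudin genes, 5 were separated as higher and 0 as lower, and 3 and 0 after median centring. The shares of all probe sets separated as higher were 12.0% and 9.80%. CLDN9 had the largest difference of the claudins (1.18 ± 0.26, limma adjusted p = 0.145). Among the 7 CEACAM genes measured, CEACAM1 alone was separated, a share near the 12.0% of all probe sets. CEACAM4, CEACAM8 and CEACAM20 had values under 4 on 2, 4 and 3 arrays. CEACAM20 had a larger difference than CEACAM1 (2.34), which rested on a value of -6.05 on wild-type array 3.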
